A study of Drosophila melanogaster with 6 samples.

Results

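The 3 arrays of bam[delta86] mutant ovaries described here are those titled as bam86 samples in a Drosophila melanogaster series of 6 arrays. The other 3 samples, from flies also mutant for stwl, were not used. Flies of the bam group were fed standard cornmeal molasses food with dry yeast, received no treatment, and gave total ovary RNA extracted with TRIzol. The sources used here do not state their age, the rest of their genotype, or whether replicates came from separate dissections. The members of the profile were all 18769 probe sets that are not array controls, ranked by mean intensity over the 3 arrays. A probe set is a group of short oligonucleotides that together read a transcript, and its intensity is a fluorescence brightness on a linear scale. In all, 11982 genes were read by at least 1 probe set with a unique gene name, and where a gene had several, the brightest on average stood for it.

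The gene bag of marbles (bam) is needed for the daughter of a female germline stem cell to leave the stem cell state. Cap cells at the tip of the germarium send BMP signals that keep bam off in the stem cell. Outside this niche, Bam acts with its partner Bgcn and the daughter begins the divisions that form a germline cyst. Without bam function the germ cells keep dividing without entering these cyst divisions, and the ovary fills with undifferentiated germ cells. Ovaries also hold somatic cells, among them the niche and escort cells, follicle cells, muscle of the sheath, tracheae and attached fat body or blood cells.

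Each array had its own background, taken from 44 control probe sets that match no fly transcript (bacterial genes and synthetic tags) as their 95th percentile. These backgrounds were 22.35, 38.75 and 22.75 on bam replicates 1, 2 and 3. Median intensities were 29.0, 40.3 and 26.5. The share of probe sets above background ranged from 50.8% to 54.7% by array. Replicate 1 had the lowest 2% to 98% trimmed mean, 220.467 against 250.005 and 250.006 on replicates 2 and 3. It was also dimmer at the top of the range, where its brightest probe set read 10598.8 against 15594.5 and 15412.3. Its spike-in control probe sets averaged 2171.96 against 3819.57 and 3877.31. Control probe sets from the 5′ part of the actin, eIF-4a and GAPDH transcripts read between 0.0798 and 0.183 of the intensity of those from the 3′ part. Over all ranked probe sets, Spearman's rho between pairs of arrays lay between 0.933 and 0.942, as a description across probe sets that share arrays and oligonucleotides.

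Signal was sorted into 4 bands. Abundant genes lay in the top 10% of all probe sets and above background on all 3 arrays, and moderate genes lay above background on all 3 arrays but below that top 10%. Uneven genes were above background on 1 or 2 arrays, and the rest were at background. By this rule 1521 genes were abundant, which is 12.7% of all genes, and 5726 were moderate. Together 60.5% of genes were above background on all 3 arrays, against 47.3% of all probe sets. A further 1277 genes were uneven and 3458, or 28.9%, were at background. The upper edge of the moderate band held near neighbours, since Ublcp1 averaged 836.1 and alt 835.8 just inside the abundant band, and mre11 averaged 835.5 and koi 834.9 just outside it. Oligonucleotides differ in how strongly they hybridise, so a percentile places a gene by signal and not by its number of mRNA molecules. Below, 3 values of a gene are its intensities on replicates 1, 2 and 3, and other levels are means over the 3 arrays, with ± for the SD. Counts of a gene list are over its members with a uniquely named probe set. They stand against 60.5% above background on all 3 arrays, 12.7% abundant and 28.9% at background among all genes.

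**Figure D1:**
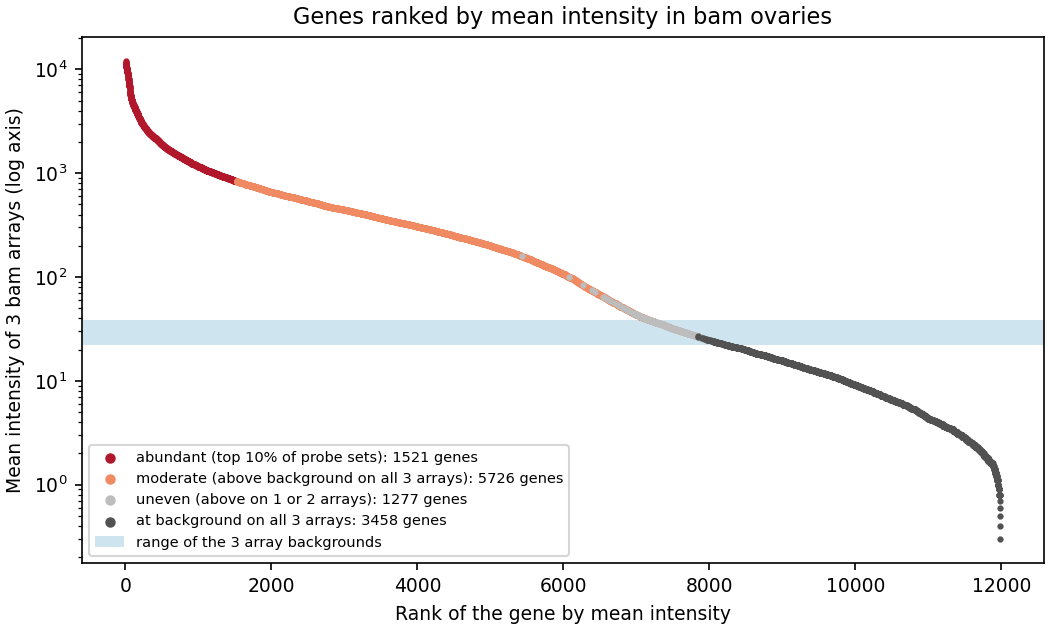
Mean intensity over the 3 bam arrays (vertical log axis) of each of 11982 genes against its rank (horizontal axis). Points are coloured by band: 1521 abundant, 5726 moderate, 1277 uneven and 3458 at background, and the blue strip spans the 3 array backgrounds of 22.35 to 38.75.

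Signal was concentrated in few probe sets. The 100 brightest probe sets held 13.0%, 15.4% and 16.7% of the summed intensity on replicates 1, 2 and 3, and the brightest 1000 held 50.3%, 52% and 53.8%. Many of the brightest could not be named, since 30 of the top 50 probe sets have no gene in the annotation table, against 25.1% of all ranked probe sets. Over the ranks, 4720 probe sets had no gene, and 3176 of these were at background.

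Genes of the protein synthesis machinery led the profile. Of the 30 brightest genes 21 are on the list of cytosolic ribosomal proteins, parts of the machine that reads mRNA into protein. RpL10Ab, at 9489.5 ± 1901.5, is a further one whose symbol the list's search pattern missed. RpL15, of the large ribosomal subunit, had 8822.3, 12596.1 and 13828.4 on replicates 1, 2 and 3. RpS18, of the small subunit, had 8547.6, 12127.5 and 13178.3. Both were lowest on the dimmer replicate 1, as were all 30 of these genes, while replicate 3 was highest for 29 of them, RpL27 being the exception. The list holds 87 cytosolic ribosomal protein genes, of which 37 had a uniquely named probe set and the rest were not analysed here. Of these 37, 33 were abundant and 36 were above background, with a median percentile of 99.7 against 62.3 over all genes. The mean intensities of these 37 summed to 5.89% of the sum over all genes. The low end of the list held the paralogues RpL22-like with a mean of 445.3 ± 26 and RpL37-2 with 188.6 ± 55.3 (SD, n = 3 each), and RpS28a, which had 52.2, 64.0 and 16.4 and was uneven. RpS28b, the copy of RpS28a elsewhere in the genome, averaged 9641.6. Probe sets of near-identical copies such as these may bind each other's transcripts, so their separate levels are uncertain.

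The remaining brightest genes were of several kinds. The top rank among uniquely named genes belonged to CG43134, an X-linked gene known here only by its number, with 8484.2, 13026.7 and 14901.9. The brightest probe set of all had no gene name and averaged 13868.5. CG18628 likewise averaged 10195.5 ± 2329.7. eEF5, a translation factor that helps ribosomes through difficult peptide bonds, averaged 10870.6 ± 2502.1, and the metallothionein MtnA, which binds metal ions, averaged 10689.9 ± 2619.7 (SD, n = 3 each). Twinstar (tsr), the fly cofilin that severs actin filaments, averaged 10667.3, and fabp, a fatty acid binding protein, averaged 9989.6. Vm34Ca and Vm26Aa, which complete the 30, encode proteins of the vitelline membrane, the inner layer of the eggshell.

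Translation factors numbered 29, all above background and 27 abundant. The helicase eIF4A, which unwinds mRNA leaders, averaged 6875.4 ± 946.8, and the cap-binding factor eIF4E1 averaged 5069.7 ± 676.8. The lowest was eEF1alpha2, an elongation factor paralogue, which had 218.4, 214.0 and 215.0. All 21 nucleolar and ribosome biogenesis genes were above background and 12 were abundant, led by Nph (4022.9), a nucleophosmin-like histone chaperone, and NHP2 (3371.4), a protein of the small nucleolar RNPs that modify rRNA.

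Genes of protein quality control were also abundant. The 26 genes for subunits of the proteasome, which degrades ubiquitin-tagged proteins, were all abundant, from Prosbeta2 at 4092.2 ± 308.9 down to Rpt2 at 1037.7 ± 176.9. Of 13 testis-type paralogues of these subunits 2 were above background on all 3 arrays and 8 were at background, such as Prosbeta5R1 with 1.4, 3.1 and 0.6. Rpt3R, at 497.4 ± 53.1, was the brightest of the paralogues. Chaperones and folding enzymes were abundant in 19 of 20 cases. Hsc70-4, a constitutive Hsp70, had 6958.4, 8844.3 and 10965.6. The exception was Pdi, the disulfide isomerase of the endoplasmic reticulum, which had 10.3, 7.1 and 12.5. Pdi is a general cellular gene read here by 1 probe set, so a gene listed at background on these arrays is not shown to be silent. All 14 ubiquitin and small modifier genes were above background, with 10 abundant. The brightest were RpS27A (11560.4) and RpL40 (8932.8), which are also on the ribosomal protein list, followed by Sumo at 8005.5 ± 1406.8 (SD, n = 3). Of these 14 genes, 3 also belong to another list.

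In mitochondria, 46 of 69 genes for subunits of oxidative phosphorylation were abundant and 55 were above background. ND-MLRQ, of complex I, averaged 7457.7 ± 1058.6, and blw, the alpha subunit of ATP synthase, averaged 6810.9 ± 905.8. At the low end lay the paralogues ND-51L1, ND-24L and ND-20L, none above 4.7 on an array. The 69 mitochondrial ribosomal protein genes were all above background, but 21 were abundant and their range was narrow, from mRpL33 at the 96.1 percentile to mRpL43 at the 73.5 percentile. All 9 glycolytic genes were above background, with Eno (enolase) at 3128.3 ± 290.6 and the hexokinase Hex-A at 370.0 ± 54.7.

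Genes of dividing cells were also well above background. All 26 genes of replication licensing and S phase were above background and 10 were abundant. PCNA, the sliding clamp of DNA polymerase, had 2194.8, 2743.8 and 2732.9, and Mcm6, of the replicative helicase, averaged 2189.2 ± 180.7. The lowest was Caf1-105, of a chromatin assembly factor, at 88.9 ± 19.8. Mitotic and cell cycle genes numbered 23, all above background, with 5 abundant. CycB, a mitotic cyclin, had 1425.6, 1803.0 and 1121.8, and the spindle checkpoint gene Bub3 averaged 1355.2. Splicing and hnRNP genes were above background in 26 of 26 cases, with 18 abundant. The lowest of these was elav, a splicing regulator known from neurons, at 24.7, 62.2 and 36.2.

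**Figure D2:**
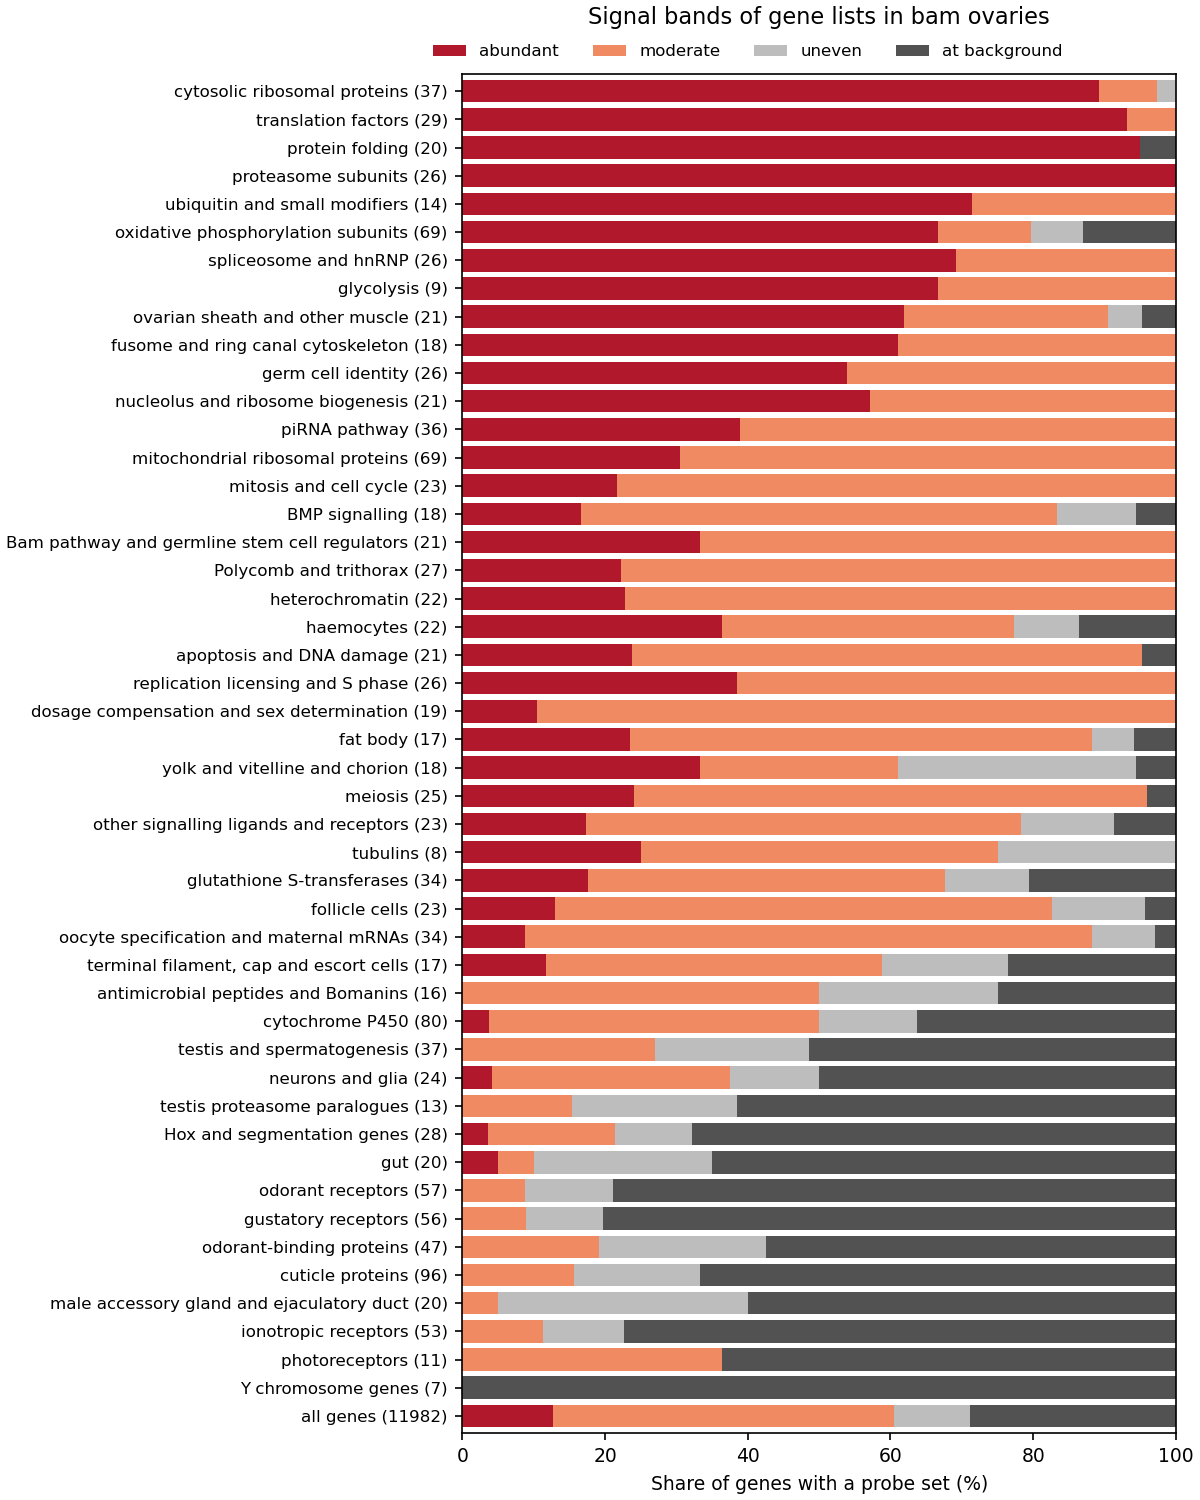
Share of the genes in each list (horizontal axis, percent of members with a probe set, number in brackets) that were abundant, moderate, uneven or at background on the bam arrays. Proteasome and translation lists are almost wholly abundant, germ cell identity and piRNA lists have no member at background, and receptor, cuticle and Y chromosome lists lie mostly at background. All 11982 genes are in the bottom bar.

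The germ cell identity list was above background in full, with 14 of 26 genes abundant and a median percentile of 92.8. Armitage (armi), an RNA helicase of piRNA production, had 2406.5, 2789.6 and 3227.9. The piRNA-binding protein piwi, which silences transposons in the nucleus, had 2080.2, 2426.2 and 2683.0. The transcription factor ovo, required for the female germline, had 2452.4, 2264.7 and 1930.3, and so was highest on the array where most bright genes were lowest. The lowest members were vas, the RNA helicase vasa of the germ plasm, at 331.2, 297.5 and 334.2, zuc, the nuclease that cuts piRNA precursors, at 263.9 ± 22.6, and squ at 180.5 ± 23.5. In the same list, 16 genes also belong to the piRNA list, so the lists are not separate evidence. That piRNA list had all 36 members above background and 14 abundant, led by ctp (4548.7), a dynein light chain, and Hel25E (2815.4), an mRNA export helicase, both of which also serve other cells. BoYb, a Tudor protein of germline piRNA processing, averaged 191.6 ± 7.8.

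Among regulators of the germline stem cell and its daughter, all 21 genes were above background and 7 were abundant, with a median percentile of 84.9. The mutated gene bam itself had 87.5, 103.2 and 99.0, above the background of each array and at the 61.4 percentile. The sources used here do not state which part of the transcript its probe set reads or what the mutant allele removes, so this value does not check the genotype. The partners of Bam were also above background. Benign gonial cell neoplasm (bgcn) had 746.4, 823.2 and 834.8, tut, a partner of both known from the male germline, had 116.0, 157.3 and 143.6, and mei-P26, a translational regulator that acts with Bam and Bgcn, had 314.4, 330.6 and 323.5. The gene stonewall (stwl), a chromatin protein that keeps germline stem cells from differentiating, had 76.1, 84.1 and 65.4 and was the lowest of the list. Among translational repressors of the stem cell, nanos had 1277.8, 1304.9 and 1552.0 and pum had 952.2, 915.7 and 918.7. The chromatin remodellers Mi-2 and Iswi averaged 1524.9 ± 126.8 and 1208.3 ± 123.0, and Ote, a nuclear lamina protein that stem cells need, averaged 1106.8 ± 76.3 (SD, n = 3 each). Of these genes bgcn, mei-P26 and pum were named after their values were seen.

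The list of the BMP pathway, which holds bam off in stem cells, also holds members of the related activin pathway. Of its 18 genes 15 (83.3%) were above background and 3 (16.7%) were abundant, against 60.5% and 12.7% of all genes. Smox, a receptor-activated Smad of the activin pathway, had 1729.6, 1799.0 and 1784.6. The receptor sax averaged 1180.2 ± 79.6, and dlp, a glypican that shapes ligand spread, averaged 959.4 ± 92.8. Mad, the receptor-activated Smad of the BMP pathway, had 602.6, 453.1 and 579.8 and was named after its values were seen. Medea (Med), the co-Smad on which the pathway depends, was uneven at 22.7, 34.8 and 65.3. The activin ligand Actbeta averaged 29.6 ± 4.2 and was uneven, and the extracellular modulator tsg was at background with 2.8, 5.6 and 3.4.

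The fusome is a membranous organelle rich in skeletal proteins that branches through germline cysts, and ring canals join cyst cells. Of 18 genes listed for these structures 18 were above background and 11 (61.1%) were abundant, against 60.5% and 12.7% of all genes. Members such as tsr, chic and TER94 also serve other cells, so these counts do not show that either structure had formed. Apart from tsr, the brightest were chic, the fly profilin, at 4695.6 ± 659.2, and TER94, an ATPase found on the fusome, at 4579.7 ± 684.4. The ring canal protein kelch (kel) had 268.7, 596.6 and 465.9, and the actin nucleators capu and spir averaged 235.6 ± 52.4 and 158.6 ± 4.6 (SD, n = 3 each).

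Meiosis genes were read in these ovaries. Of 25 genes 24 were above background on all 3 arrays and 6 were abundant, with a median percentile of 69.9. The synaptonemal complex genes corolla and cona had 1110.7, 1105.2 and 1280.0, and 920.6, 1105.4 and 1397.1. The spindle motor ncd averaged 1037.8 ± 107.0 and the cohesin SMC1 averaged 878.3 ± 164.9, both of which also serve other divisions or tissues. The lowest of the list were mei-W68, mei-P22 and rec. The nuclease mei-W68, which makes the breaks of meiotic recombination, was at background with 18.0, 25.8 and 16.1, its helper mei-P22 had 31.0, 50.9 and 67.1, and the crossover gene rec had 40.2, 49.1 and 47.0.

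Oocyte and maternal genes lay mostly in the moderate band. Of 34 genes 30 (88.2%) were above background and 3 (8.82%) were abundant, against 60.5% and 12.7% of all genes. The median percentile was 63.6 against 62.3 over all genes. The 3 abundant ones were Nap1 (4829.8), a histone chaperone, gus (1756.2), a partner of vasa, and swm (1087.7), an RNA-binding protein. BicD, an adaptor for dynein-driven mRNA transport, averaged 763.6 ± 25.0. The patterning mRNAs bcd and osk, whose products set the head and tail ends of the embryo, were dim. For bcd the values were 91.7, 117.0 and 94.9, and its other probe set was at background. The brightest osk probe set had 36.2, 40.0 and 20.6 and was uneven, and the other 2 osk probe sets averaged 24.5 and 18.8. BicC, an RNA-binding translational regulator of oogenesis, had 26.7, 40.6 and 11.3. The proteases ea and snk, of the dorsoventral cascade, had 5.9, 45.0 and 8.0, and 3.7, 11.6 and 3.8. Oskar was chosen to be named after its values were seen.

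**Figure D3:**
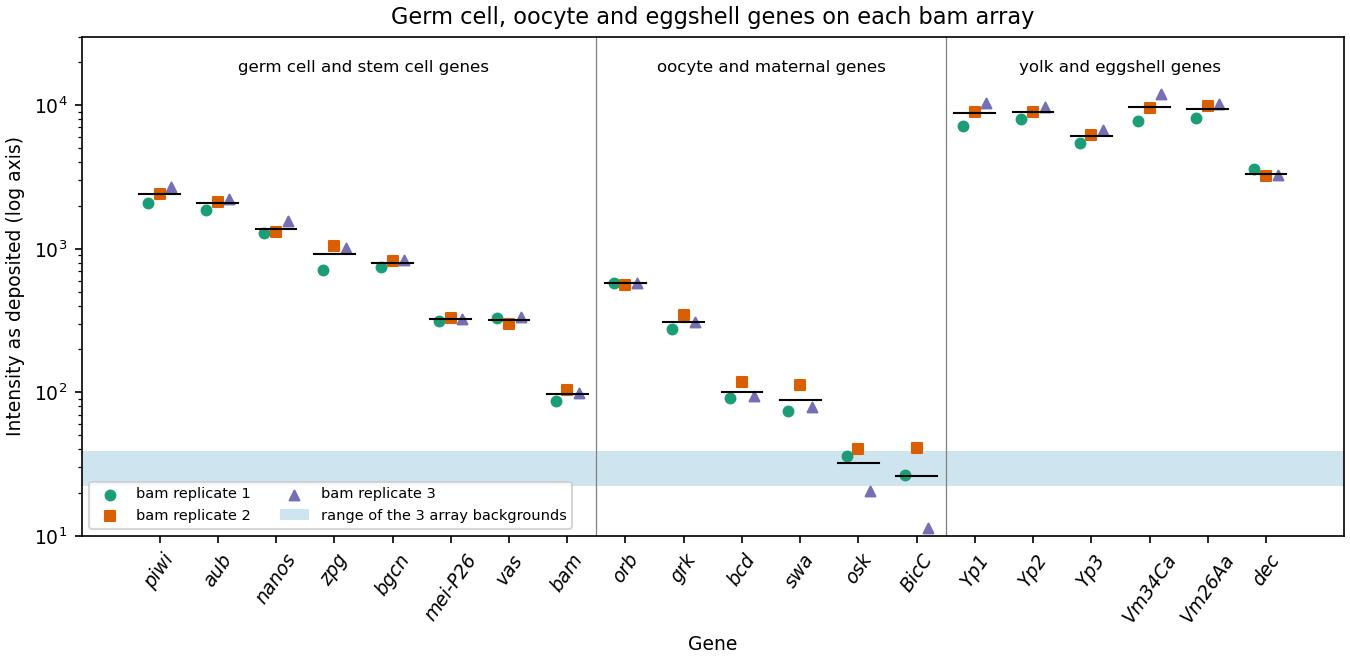
Deposited intensity (vertical log axis) on each bam array of 8 germ cell and stem cell genes, 6 oocyte and maternal genes and 6 yolk and eggshell genes, chosen after their values were seen. Points are arrays, bars are means of 3 and the strip spans the array backgrounds. The yolk and eggshell genes lie between 3191.6 and 11892.1 on every array, and osk and BicC lie in or near the strip.

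Yolk and vitelline membrane genes were among the brightest on every array. These products belong to follicle cells of yolk-forming egg chambers and, for yolk proteins, also to fat body. The yolk protein gene Yp1 had 7196.8, 9006.1 and 10394.9, Yp2 had 8049.4, 8927.4 and 9771.8, and Yp3 had 5424.0, 6162.8 and 6675.6. Vm34Ca had 7714.4, 9598.4 and 11892.1, and Vm26Aa had 8151.4, 9846.9 and 10195.5. The eggshell gene dec (defective chorion) had 3578.7, 3191.6 and 3244.8. The arrays thus read somatic products as well as those of germ cells. In bulk ovary RNA, fewer cells of a type and less RNA per cell cannot be told apart, and the number of such egg chambers in these ovaries was not measured. The other vitelline membrane genes were moderate, with Vm32E at 830.3, 822.2 and 663.6, psd at 843.2, 537.5 and 545.5, and Vm26Ac at 155.8, 149.8 and 102.9. The list as a whole had 6 of 18 genes (33.3%) abundant and 11 (61.1%) above background, against 12.7% and 60.5% of all genes. A further 6 were uneven and 1, the peroxidase gene Pxd, was at background.

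Chorion genes, which form the outer eggshell late in oogenesis, differed between replicates by chromosome. The 3 read genes of the X chromosome were brightest on replicate 1. Cp36 had 419.0, 21.6 and 35.1, Cp38 had 262.5, 32.0 and 5.3, and Cp7Fc had 116.8, 20.3 and 41.8. The 4 read genes of chromosome arm 3L were brightest on replicate 3. Cp18 had 45.4, 42.1 and 761.5, Cp15 had 36.9, 53.2 and 584.2, Cp16 had 2.4, 2.3 and 178.9, and Cp19 had 17.3, 8.3 and 69.0. Summed, the X-linked genes had 798.3, 73.9 and 82.2, and the 3L genes had 102.0, 105.9 and 1593.6. Each group thus rested on 1 array, and on the others its genes lay near the background range. Both sets are known as clusters whose DNA is amplified in follicle cells, the X-linked cluster being transcribed earlier than the 3L cluster. For each of the 9 yolk, vitelline membrane and dec genes above, the brightest array exceeded the next by at most 1.55 times. The split by chromosome was noticed in these values, rests on 7 genes and was not tested. Apart from Cp15, Cp18, Cp19 and the list's other extremes, the eggshell genes were named after their values were seen.

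**Figure D4:**
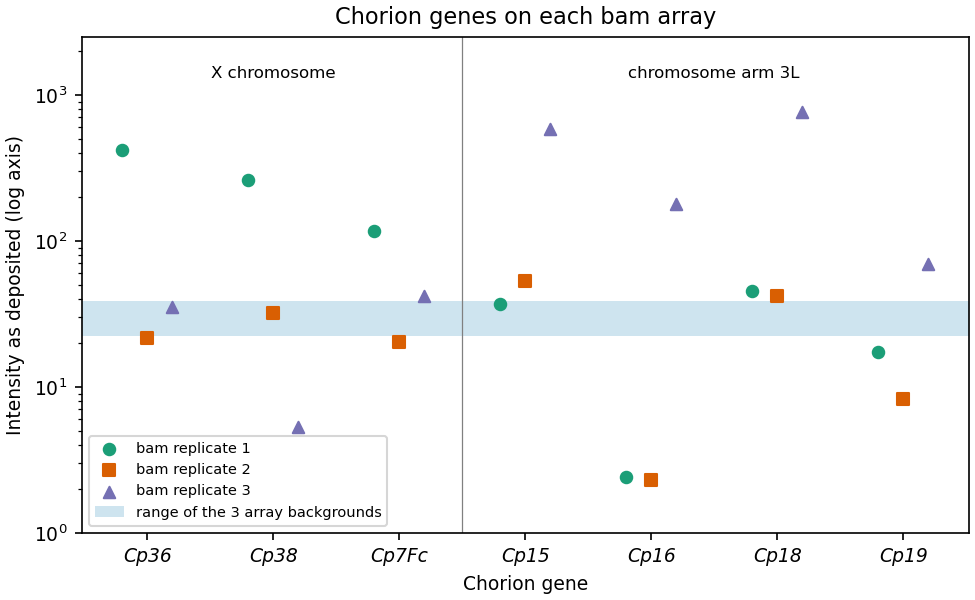
Deposited intensity (vertical log axis) of 7 chorion genes on each bam array, grouped by chromosome (horizontal axis), with the strip of array backgrounds. Replicate 1 is highest for the 3 X-linked genes and replicate 3 for the 4 genes of arm 3L.

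Niche and escort cell genes were spread over the bands much as all genes were. Of 17 genes 10 (58.8%) were above background and 2 (11.8%) were abundant, against 60.5% and 12.7% of all genes, and the summed intensity of the list lay between 4739.4 and 5341.7 on the 3 arrays. nord, a secreted protein with an effect on BMP signalling, had 1676.2, 1741.0 and 1841.9, and ci, the transcription factor of Hedgehog signalling, had 1532.1, 1534.8 and 1742.1. The transcription factors zfh1 and bab2 averaged 697.6 ± 65.9 and 473.6 ± 14.2 (SD, n = 3 each). Hedgehog itself (hh), a ligand of terminal filament and cap cells, had 30.5, 51.6 and 67.8, and traffic jam (tj), of somatic gonad cells, had 115.6, 75.1 and 157.8. The cap cell marker engrailed (en) was at background with 8.2, 5.7 and 7.3, as were inv, Wnt6 and hbs. The genes hh, tj and hbs were named after their values were seen.

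Follicle cell genes gave 19 of 23 (82.6%) above background and 3 (13.0%) abundant, against 60.5% and 12.7% of all genes. Their summed intensity was 7406.7 to 8156.8. Anterior open (aop), a repressor of receptor tyrosine kinase targets, averaged 1225.2 ± 87.4, eyes absent (eya), a repressor of polar cell fate, averaged 1103.3 ± 130.7, and Ance, a peptidase, averaged 948.6 ± 113.9 (SD, n = 3 each). upd1, the JAK/STAT ligand of polar cells, was uneven with 14.3, 6.6 and 25.3, and Cad74A, a cadherin of later follicle cells, had 37.1, 15.2 and 4.6. Of the 23 genes, 7 also belong to another list.

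Muscle genes were bright. Of 21 genes 13 were abundant and 19 above background. Their summed intensity as deposited was 40885.7 on replicate 1, the dimmer array, 49263.4 on replicate 2 and 54690.5 on replicate 3. Mlp60A, a LIM protein, had 5908.8, 8260.2 and 7886.4 on its brightest probe set. Its other 2 probe sets averaged 74.9 and, at background, 18.1. Myosin light chain Mlc1 had 4548.1, 5964.2 and 7761.9, and tropomyosin Tm2 averaged 4922.0 ± 879.9. Flight muscle genes were at the low end, with Act88F at 30.7, 8.5 and 11.8 and fln at 5.8, 2.3 and 11.0.

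Blood cell genes were above background in 17 of 22 cases (77.3%), with 8 (36.4%) abundant, against 60.5% and 12.7% of all genes. The ferritin chains Fer1HCH and Fer2LCH, which store iron in many tissues, averaged 7818.6 ± 1326.8 and 5841.6 ± 802.7, and the matrix genes Ppn and Pxn averaged 6383.8 ± 789.7 and 3909.8 ± 506.5 (SD, n = 3 each). The blood cell markers Hml, NimC1 and eater were moderate, at 637.6 ± 92.7, 480.3 ± 43.7 and 238.6 ± 37.2. The marker He was uneven at 64.0, 37.0 and 43.3. These markers were named after their values were seen, and which cells gave the signal of this list was not tested. The lineage regulators lz, gcm2 and gcm were at background, with gcm at 3.8, 8.4 and 4.9. The fat body list gave 15 of 17 genes above background and 4 abundant. Apart from Yp1 these were the desaturase Desat1 (2190.5), the fatty acid synthase FASN1 (1640.0) and Cyp4g1 (1142.2), none of them confined to fat body. Lsp2 averaged 336.8 ± 138.9 and Fbp1 averaged 75.1 ± 35.7, both moderate and both named after their values were seen. The part of fat body in the yolk protein signal was not tested. The fat body gene Fbp2 had 40.5, 124.9 and 154.9, and Obp99c had 24.3, 112.2 and 76.0.

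Genes of tissues outside the ovary were at background more often than all genes, of which 28.9% were. Of 24 neuronal and glial genes 12 (50%) were at background, such as VAChT, the acetylcholine vesicle transporter, with 0.6, 0.7 and 1.0. A further 9 (37.5%) were above background on all 3 arrays, against 60.5% of all genes. The monoamine transporter Vmat was the abundant exception at 876.4, 1109.4 and 1152.0, but another of its 4 probe sets was at background with a mean of 14.3. Photoreceptor genes were above background in 4 of 11 cases (36.4%), with the channel trpl highest at 124.3 ± 21.7. Gut genes were above background in 2 of 20 cases (10%). These were the maltase Mal-A5, at 1591.4, 1484.5 and 1893.5, and the protease Jon74E, at 37.6, 79.1 and 45.6.

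Male genes were at the low end too. Of 37 testis genes 10 (27.0%) were above background and 19 (51.4%) at background, against 60.5% and 28.9% of all genes, and 0 were abundant. The brightest was Phf7, a chromatin reader that promotes male identity in germ cells, with 818.2, 795.1 and 831.2. The transcripts of dj, djl and tHMG1, late in sperm development, averaged between 1.9 and 2.0. twe, the meiotic Cdc25 phosphatase, had 226.9, 241.9 and 157.0. Of 20 genes of the male accessory gland and ejaculatory duct 1, Acp95EF, was above background on all arrays with 29.1, 106.4 and 89.6. The 7 Y chromosome genes were all at background, with kl-2 highest at 11.1, 9.2 and 13.1.

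Receptors of smell and taste are used by sensory neurons. Among 166 odorant, gustatory and ionotropic receptor genes 16 were above background on all 3 arrays, 131 were at background and 0 were abundant. Their highest mean was 154.3, of Ir76a, which had 149.0, 164.6 and 149.2. Odorant-binding proteins were above background in 9 of 47 cases (19.1%) and cuticle proteins in 15 of 96 (15.6%), against 60.5% of all genes. Cpr78E was highest among cuticle genes at 132.9 ± 15.3 (SD, n = 3). Of 28 Hox and segmentation genes 19 were at background, with slp2 at 0.6, 1.8 and 0.3. hry (hairy) was the abundant one at 881.6, 676.5 and 1175.5, while the maternal factors hb and bcd were moderate.

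Chromatin and sex-determining genes were read throughout. All 27 Polycomb and trithorax genes and all 22 heterochromatin genes were above background. The Polycomb list had 6 abundant members, led by lolal (2529.6), a BTB protein, and mor (1822.0), a subunit of the Brahma complex, with Pc itself at 166.4, 172.3 and 244.4. The gene of HP1a, the main protein of heterochromatin, averaged 2596.4 ± 361.9, and Su(var)3-7 had 93.1, 151.6 and 175.0. All 19 genes of dosage compensation and sex determination were above background and 2 were abundant, against 12.7% abundant among all genes. The 2 abundant ones were ovo (2215.8) and tra (839.0), which sets female splicing. The level of tra lay near the lower edge of the abundant band, where alt averaged 835.8. Which splice form of tra was read was not tested. The male-specific dosage subunit msl-2 had 116.3, 127.5 and 60.0. His2Av, a replication-independent histone, averaged 4067.9 ± 637.2, and the centromeric histone cid averaged 177.2 ± 33.6 (SD, n = 3 each).

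Checkpoint and death genes were above background in 20 of 21 cases. The kinases grp and lok, fly Chk1 and Chk2, averaged 2356.8 ± 225.8 and 1696.9 ± 167.0 (SD, n = 3 each). The cell death activator grim was at background with 3.8, 0.1 and 0.5, while skl, of the same group, had 86.4, 92.8 and 100.1. Signalling ligands and receptors outside the BMP pathway were above background in 18 of 23 cases (78.3%), against 60.5% of all genes. At the top were fng (1739.3), a Notch-modifying sugar transferase, and Stat92E (1664.3), the JAK/STAT transcription factor. The ligands upd2 and Wnt6 were at background.

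Genes of detoxification and immunity were above background at shares nearer the 60.5% of all genes. Cytochrome P450 genes were above background in 40 of 80 cases (50%), and 3.75% were abundant, against 12.7% of all genes. Cyp18a1, which breaks down ecdysone, had 1352.1, 1374.0 and 1338.2. Glutathione S-transferases were above background in 23 of 34 cases (67.6%) and 17.6% were abundant. GstD1 averaged 4547.1 ± 808.7 (SD, n = 3). Among 16 antimicrobial peptides and Bomanins 8 (50%) were above background and 0 were abundant. Def had 122.6, 370.9 and 290.9, and Drs had 309.0, 288.2 and 187.8. The tubulin betaTub56D had 6277.9, 7818.6 and 8483.1, and the testis-specific betaTub85D had 32.1, 33.4 and 35.5. The 1 inducible heat shock gene with a uniquely named probe set, Hsp68, had 270.0, 138.8 and 392.6.

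Relative spread between replicates was smallest in the abundant band. After each array was rescaled to the median trimmed mean of the arrays, the median coefficient of variation over 3 arrays was 7.25% for abundant genes, 10.6% for moderate, 43.2% for uneven and 55.3% for those at background. The bands were drawn from the same 3 arrays, and uneven genes differ between arrays by rule, so this order is partly fixed in advance. Genes at background had a median mean intensity of 7.75, where small shifts give a large coefficient. Among genes above background on all arrays, the widest range belonged to Cp18, whose highest rescaled array was 18.1 times its lowest, and Cp15, at 14.0 times. The next were CG13114, with 123.8, 58.8 and 27.1 as deposited, and Obp99c. Others of the 12 widest were CG30457, lncRNA:alphagamma-element:CR32865, meep, escl, CG13545, CG13069, Fbp2 and Sec20. The long noncoding RNA had 325.8, 136.3 and 99.7, and escl, a Polycomb subunit paralogue, had 228.6, 225.7 and 74.0.

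**Figure D5:**
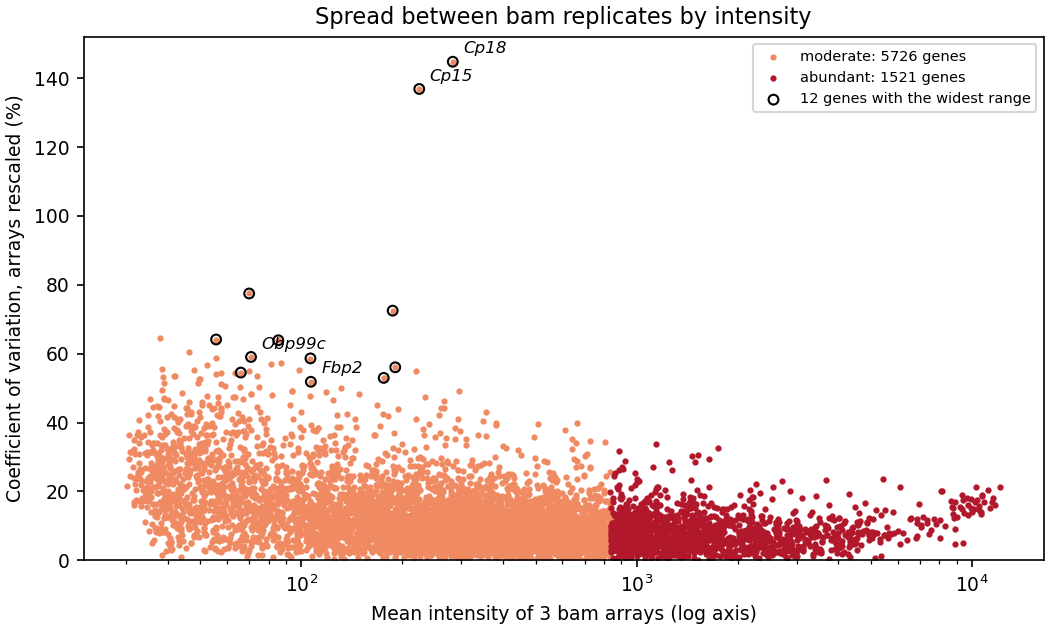
Coefficient of variation over the 3 rescaled bam arrays (vertical axis, percent) against mean intensity (horizontal log axis) for 1521 abundant and 5726 moderate genes. Circles mark the 12 genes with the widest range, and Cp18 and Cp15 stand above all other genes at 145% and 137%.

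Probe sets of the same gene often disagreed. Of 1094 genes with several probe sets, 464 (42.4%) had all of them in 1 band, and the median gap between the highest and lowest percentile was 24.8 points. For 330 genes a probe set lay above background on all arrays while another lay on none. The mitotic activator fzy had a probe set averaging 957.3 and others averaging 19.1 and 11.1, and RpS29 had 10737.4, 8358.1 and 25.1. Of the 3458 genes at background, 5 had a further probe set above background on 1 or 2 arrays. Names that mark probe sets matching several transcripts were held by 20.9% of abundant genes, 11.7% of moderate, 4.62% of uneven and 3.12% of those at background.

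Chromosome and gene length also differed between bands, with positions taken from a RefSeq table of the Release 6 assembly. On the X chromosome 65.2% of 1869 genes were above background, and on the other large arms between 59.1% and 60.6% were. The small chromosome 4 had 65 read genes, of which 72.3% were above background and 29.2% were abundant, against 12.7% over all genes. Median gene length, introns included, was 2918 bases in the abundant band, 2739 in the moderate, 1932 in the uneven and 1608 at background. Genes known only by a number were above background in 46.8% of 5301 cases, against 71.3% of 6681 genes with a name. Of 77 long noncoding RNA genes 13 (16.9%) were above background, against 60.5% of all genes, and 57 were at background.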

How the data were processed

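The deposited table gives 1 linear intensity per probe set and array, made by the authors with GCOS per the submitters' processing notes. Its version and scaling are not stated there, and detection calls were not used here. No between-array normalization was added. From the deposited intensities of 18952 probe sets 183 controls were set aside, of which 44 gave each array's background. Of the 18769 others, 13647 had 1 gene name, 402 several and 4720 none. Of the named, 13544 were updated through a RefSeq table of Release 6 and 103 kept their older name. No group was compared and no test was run, so no p-value is given, and spread between the 3 samples may be technical. Values are as deposited unless called rescaled.

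Named genes were bam and stwl, the 30 brightest, the 12 with the widest range, and up to 4 highest and 3 lowest members of 49 lists. Members and lists were chosen with earlier results of these data known, and some names are older symbols updated by hand. Band counts were recomputed under other scalings, backgrounds, thresholds, averages, probe set choices and with each replicate left out. The banding script was tested on simulated data. Promoter motifs and protein lengths were not analysed here. Work used Python 3.11.15, pandas 2.3.3, numpy 2.4.6, scipy 1.17.1 and matplotlib 3.10.9.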

Additional observations from a re-analysis of the deposited data

How the results depend on the processing

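No paired analysis was possible because no groups are compared and no test is run. The number of genes above background on all arrays, 7247, lay between 6633 with chemoreceptor genes as background and 9545 with the median control, and between 7339 and 7537 without each replicate in turn. Genes at background numbered 490 with the median control as background in place of 3458, and between 3555 and 3822 without each replicate. Leaving out a replicate can only raise or keep both counts, because fewer arrays have to meet each rule. The direction of these changes therefore says nothing about a replicate. Abundant genes numbered 711 with the top 5% and 3179 with the top 20% in place of 1521. In lists, the count of members above background changed by more than 1.5 times in 14 of 49 lists with the median control, 9 with chemoreceptor genes and 3 with the highest control, and in 0 under rescaling, quantile normalization, log2 means or the median probe set of a gene. The median coefficient of variation of genes above background was 9.68% rescaled, 12.4% as deposited and 9.23% after quantile normalization. Without replicate 3 the gut list had 4 members above background in place of 2 and the odorant receptors 8 in place of 5. Without replicate 1 the accessory gland list had 3 in place of 1. Such rises in members above background also have a direction fixed by the rule. Without replicate 2 the testis list had 1 abundant member in place of 0, and without replicate 3 the Hox list had 0 in place of 1. Genes near 22.35 to 38.75 cannot be ordered, since array backgrounds span that range.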
